A study of Mus musculus with 9 samples.

Results

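The genes described here handle arginine and the polyamines made from it. They are *Arg1*, *Arg2*, *Nos2*, *Ass1*, *Asl*, *Slc7a1*, *Slc7a2*, *Odc1*, *Srm* and *Sat1*, 10 of the 19481 genes in the count table. They were taken by symbol, and the group was drawn up around *Arg1*, which was selected on its measured counts, being higher in every sh2 tumor than in the control tumors. For that reason the comparison of sh2 with the control is given for these 10 genes as a description, without a test, and *Arg1* is given without a test throughout.

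Arginine enters cells through cationic amino acid transporters and is then used by competing enzymes. Nitric oxide synthases turn it into nitric oxide and citrulline, and citrulline can be rebuilt into arginine. Arginases split it into urea and ornithine, and ornithine feeds both proline synthesis and the polyamines putrescine, spermidine and spermine. In tumors arginase 1 is best known from macrophages and other myeloid cells, where it is set against the inducible nitric oxide synthase, while ornithine decarboxylase is a classical gene of proliferating cells.

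The RNA came from subcutaneous tumors of KLN205 cells, which derive from a squamous cell carcinoma of the mouse lung, grown in the right flank of immunocompetent female DBA/2 mice of 6 to 8 weeks. The cells carried doxycycline-inducible SMART shRNA vectors and were a puromycin-selected population rather than a clone. The groups were shControl (a scrambled shRNA), sh2 Tmprss11b and sh3 Tmprss11b, with 3 tumors each, and they are called control, sh2 and sh3 below. All 9 tumors, the control tumors included, were exposed to doxycycline through drinking water from a mean tumor volume of 100 mm3 until resection on day 50. The shRNA acts in the carcinoma cells, whereas the RNA came from whole tumor tissue with its stroma and immune cells. In such bulk RNA a change in the number of cells of a type and a change in RNA per cell cannot be told apart.

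Total counts lay between 20653219 and 24047784 per tumor, so that 3 counts correspond to 0.125 to 0.145 CPM (the count scaled to the normalized size of the library). *Tmprss11b*, the protease gene targeted by both constructs, had 18 to 51 counts in the control, 2 to 7 in the sh2 and 4 to 10 in the sh3 tumors. Of 7 squamous carcinoma markers, the summed level lay between 1161.1 and 1930.0 CPM in the 9 tumors. That sum was mostly *Epcam* and *Cdh1*, so it says little of the other markers. *Epcam* reached at least 645.5 CPM in each tumor, while *Trp63* stayed at or below 6.94 CPM. *Krt14* ranged from 12.3 to 389.7 CPM and *Krt6a* from 46.4 to 291.9 CPM. *Krt5* was at 87.4 CPM in control replicate 1, at or below 5.02 CPM in the others, and had only 2 counts in sh3 replicates 1 and 3. The sh3 tumors differed most among themselves. The summed level of 10 macrophage markers was 1608.2 CPM in sh3 replicate 1, 7509.6 CPM in sh3 replicate 2 and 4508.4 CPM in sh3 replicate 3, against 3385.9 to 3718.6 CPM in the control and 2329.4 to 3510.1 CPM in the sh2 tumors. Skeletal muscle markers ranged from 1.25 to 2844.4 CPM over all tumors, with the lowest value in sh2 replicate 3 and the highest in control replicate 3. Their part in the results was not tested.

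The 10 genes were first ordered by level on the deposited TPM scale, which accounts for transcript length. *Sat1*, which encodes the spermidine/spermine acetyltransferase that starts polyamine breakdown, had the highest mean level over the 9 tumors, with 364.3 ± 79.9 TPM (SD, n = 9). *Odc1* (ornithine decarboxylase, 153.3 TPM), *Arg1* (109.1 TPM), *Srm* (spermidine synthase, 104.4 TPM), *Asl* (argininosuccinate lyase, 69.8 TPM), *Slc7a1* (the broadly expressed arginine transporter CAT1, 55.5 TPM) and *Ass1* (argininosuccinate synthase, 24.7 TPM) followed. *Arg2*, the mitochondrial arginase, *Nos2*, the inducible nitric oxide synthase, and *Slc7a2*, the transporter CAT2 of activated macrophages, were far lower at 4.72, 3.58 and 3.18 TPM. Every pair of neighbours in this order had overlapping ranges except *Ass1* and *Arg2*, so the last 3 genes formed a lower tier. Overlap of the ranges did not always mean a changing order, since *Srm* was above *Asl* in 9 of 9 tumors and *Sat1* above *Odc1* in 8. *Arg1* varied most. Its highest tumor was 17.7 times its lowest, from 15.8 to 280.7 TPM, whereas the same ratio was between 1.51 and 4.08 for the other 9 genes.

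**Figure D1:**
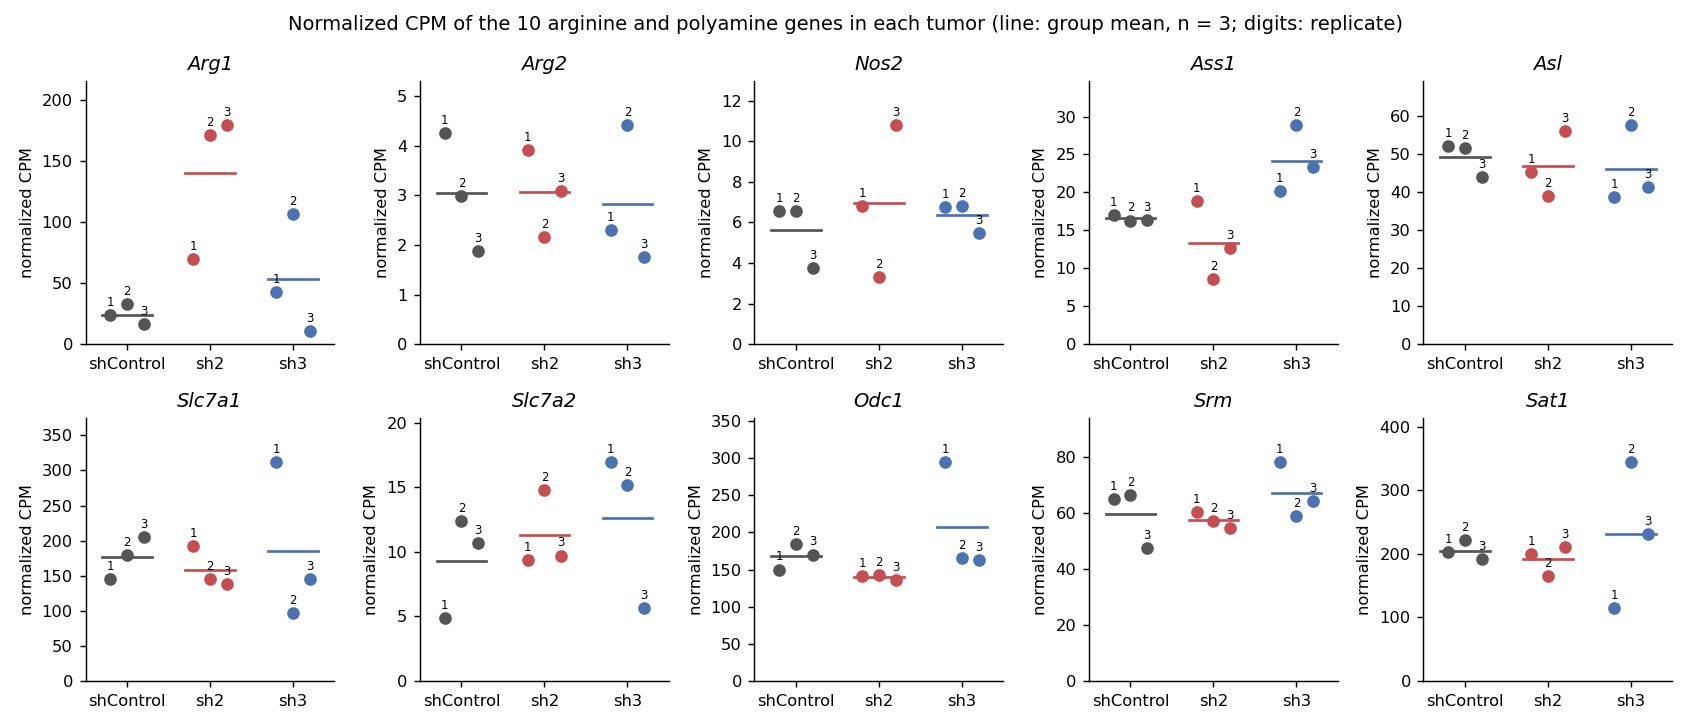
Each panel plots 1 gene, with the normalized CPM of the 9 tumors on a linear axis from 0, the 3 groups side by side, a line at the group mean and the replicate number at each point. The 3 sh2 tumors lie above every control tumor for Arg1, the 3 sh3 tumors lie above all others for Ass1, and sh3 replicate 1 stands far above the rest for Slc7a1 and Odc1.

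*Arg1* encodes cytosolic arginase 1 and lies on chromosome 10 (GRCm38, 24915221 to 24927484, minus strand), with no other annotated gene overlapping it. The control tumors had 554, 789 and 400 counts. The sh2 tumors had 1653, 3548 and 4305, and the sh3 tumors 917, 2096 and 260. After normalization these were 23.6, 32.7 and 16.4 CPM in the control, 69.6, 171.4 and 179.6 CPM in sh2, and 42.4, 106.5 and 11.1 CPM in sh3. The sh2 tumors did not overlap the control tumors, which is what the choice of *Arg1* required: its lowest sh2 value, 69.6 CPM, stood above the highest control value, 32.7 CPM. The sh3 tumors spanned both other groups, with 1 tumor among the sh2 values and 1 below every control tumor.

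The fitted log2 fold change of *Arg1* was 2.53 ± 0.72 (SE) in sh2 against the control, a 5.79-fold higher level. It was between 2.31 and 2.85 when any tumor was left out. That it stayed above 0 follows from the choice of *Arg1* and is no separate result. In sh3 against the control the fitted log2 fold change was 1.14 ± 0.69. That value rested on sh3 replicate 2, without which it was 0.14, and it was 1.59 without sh3 replicate 3. Between the constructs, sh3 was lower than sh2 by a fitted log2 fold change of -1.40 ± 0.69 with overlapping tumors, which became -2.39 without sh3 replicate 2 and -0.94 without sh3 replicate 3. The mean level was 24.2 ± 8.16 CPM (SD, n = 3) in the control, 140.2 ± 61.3 CPM in sh2 and 53.3 ± 48.6 CPM in sh3.

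*Arg1* supplied most of the arginase transcript in each tumor. On the TPM scale it made up 84.2%, 91.3% and 89.3% of the sum of *Arg1* and *Arg2* in the control tumors, 94.5%, 98.7% and 98.2% in sh2, and 94.6%, 95.9% and 85.9% in sh3. The shares reuse the *Arg1* values, so the order of control and sh2 follows largely from its choice and is no separate result. *Arg2* (chromosome 12, 79130777 to 79156301, plus strand) did not follow *Arg1*. It had 4.26, 2.98 and 1.88 CPM in the control, 3.92, 2.17 and 3.09 CPM in sh2, and 2.31, 4.42 and 1.75 CPM in sh3. Its log2 fold change was 0.01 ± 0.45 in sh2, and in sh3 it was -0.11 ± 0.45 against the control (edgeR Benjamini-Hochberg adjusted p = 0.974). The 3 groups overlapped. *Arg2* shares part of its locus with *Vti1b* and a further antisense gene, and the strand setting of the counting is not given in the sources used here, so reads of these genes may not have been separated.

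Of the 10 macrophage markers, 8 had a fitted log2 fold change below 0 and 2 above 0 (*Lyz2* and *Cd14*) in sh2 against the control, with a median of -0.32, and none had an unadjusted p under 0.05 with edgeR. The most abundant of them, *Lyz2* (lysozyme), was thus not typical of the list, at 732.5 to 925.0 CPM in the control, 823.3 to 1097.1 CPM in sh2 and 607.3 to 2149.4 CPM in sh3. Because arginase 1 is made by macrophages, *Arg1* was also set against the 10 macrophage markers of the same tumor. For each 1000 CPM of macrophage markers there were 6.35, 9.65 and 4.44 CPM of *Arg1* in the control tumors and 20.3, 73.6 and 51.2 in sh2. The order of these 2 groups on this scale follows largely from the choice of *Arg1* and is no separate result. The summed macrophage level itself was below the control range in sh2 replicate 2 and within it in the other two. What part macrophages had in the *Arg1* level was not tested. In sh3 the same ratio was 26.4, 14.2 and 2.47, so the tumor with the fewest macrophage transcripts, sh3 replicate 1, had the highest ratio of its group and sh3 replicate 3 the lowest of all 9.

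Genes of alternatively activated macrophages were mixed. Of 11 fitted, 6 had a log2 fold change above 0 and 5 below 0 in sh2 against the control, with a median of 0.04. Their 11 transcripts summed to 397.6 to 465.6 CPM in the control, 420.8 to 442.8 CPM in sh2 and 328.9 to 504.0 CPM in sh3. That sum was mostly *Il4ra*, a chain of the interleukin 4 receptor and the most abundant of them, with a log2 fold change of -0.16 ± 0.17 in sh2, and *Mrc1*, the mannose receptor, with 0.04 ± 0.38, so it says little of the members at low levels. *Ccl22*, a chemokine for CCR4-bearing T cells, was at 7.07, 7.04 and 8.31 CPM in the control and 18.5, 32.1 and 8.64 CPM in sh2, a log2 fold change of 1.40 ± 0.43 (edgeR adjusted p = 0.999). *Ccl17*, its close relative, had 1.80 ± 0.79 (edgeR adjusted p = 0.999). The chemokine *Ccl24* had the largest value of the list, 2.04 ± 1.35 (edgeR adjusted p = 0.999), with 0.298, 3.39 and 1.88 CPM in the control and 3.45, 17.8 and 1.84 CPM in sh2, and *Retnla* the lowest, -2.06 ± 1.14 (edgeR adjusted p = 0.999). Neutrophil markers, 7 of 8 of which were in the table, ranged from 88.1 to 174.6 CPM in the control, from 100.1 to 182.6 CPM in sh2 and from 55.3 to 156.5 CPM in sh3. Of the 5 that were tested, 4 had a log2 fold change above 0 in sh2 against the control, *Retnlg* with 1.22 ± 0.76, *Cxcr2* with 0.84 ± 0.48, *S100a9* with 0.40 ± 0.71 and *S100a8* with 0.28 ± 0.77, and none had an unadjusted p under 0.05 with edgeR. The most abundant of them, *Csf3r*, the receptor of granulocyte colony-stimulating factor, had -0.04 ± 0.38. The granule gene *Mpo* was at 0.0483 to 0.126 CPM in the sh2 tumors, at or under 3 counts. The part of neutrophils in the *Arg1* level was not tested either. Markers other than the most abundant of each list are named here because of their values.

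**Figure D2:**
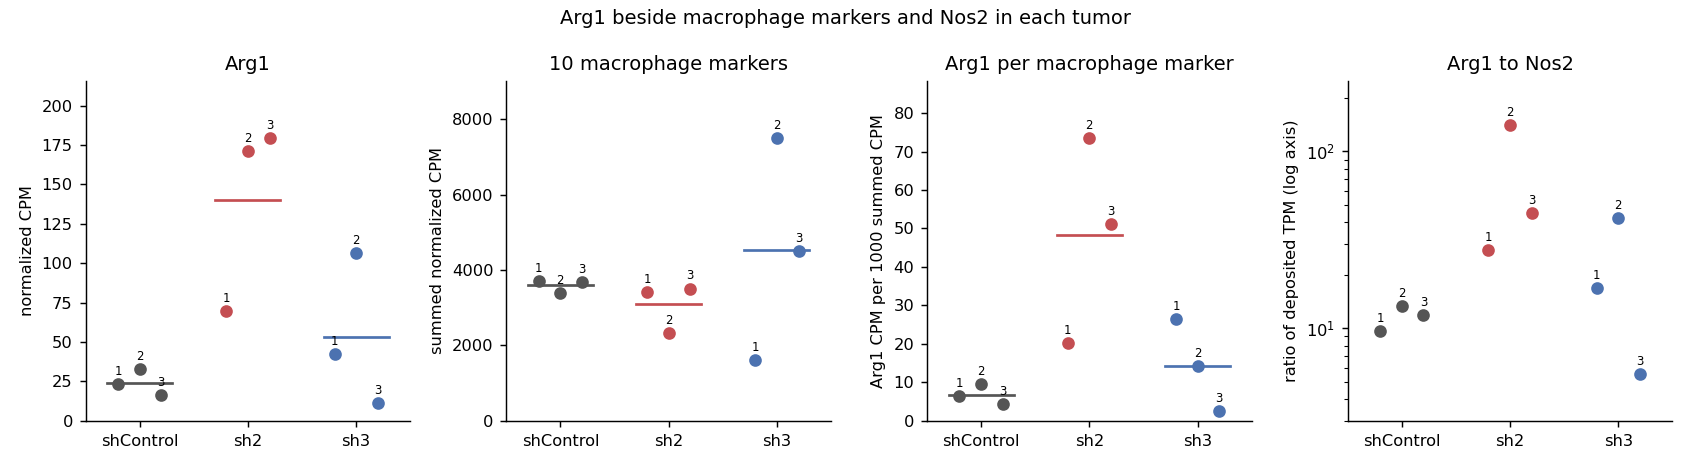
The panels plot, for each tumor by group, Arg1 in normalized CPM, the summed CPM of 10 macrophage markers, Arg1 per 1000 CPM of those markers, and the ratio of Arg1 to Nos2 in deposited TPM on a log axis, with replicate numbers at the points and lines at group means in the 3 linear panels. The sh2 tumors are above all control tumors in the Arg1 panel, as its choice required, and the 2 ratios reuse the same Arg1 values, while the macrophage sum is most spread in sh3, from 1608.2 to 7509.6 CPM.

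The genes whose log2 CPM ran most like *Arg1* over the 9 tumors, out of 14715 compared, were *Rnase2a* (Pearson r = 0.930), *Tbc1d30* (0.919), *Pygl* (0.915), *Zcchc3* (0.911) and *Camk2n1* (0.903). *Rnase2a*, a secreted ribonuclease, had the widest range of the 5, from 0.342 CPM in sh3 replicate 3 to 31.8 CPM in sh2 replicate 2. *Pygl*, the liver form of glycogen phosphorylase, was at 9.13 to 13.4 CPM in the control, 15.5 to 21.6 CPM in sh2 and 8.47 to 19.3 CPM in sh3. *Camk2n1*, an inhibitor of calcium/calmodulin-dependent kinase II, was at 10.2 to 11.6 CPM in the control and reached 45.3 CPM in sh2 replicate 3. These correlations were picked as the highest of 14715 and describe 9 tumors in which the group means differ. They carry no p because *Arg1* was chosen for its values, and whether these genes are regulated together was not tested.

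*Nos2* competes with arginase for the same substrate and was low in all groups. It lies on chromosome 11 (GRCm38, 78920787 to 78960254, plus strand), with no overlapping gene. Its levels were 6.56, 6.58 and 3.73 CPM in the control, 6.82, 3.29 and 10.8 CPM in sh2, and 6.75, 6.81 and 5.48 CPM in sh3. Both the lowest and the highest of the 9 tumors were sh2 tumors. The log2 fold change was 0.31 ± 0.42 in sh2 and 0.17 ± 0.42 in sh3 against the control (edgeR adjusted p = 0.956), and -0.14 ± 0.42 in sh3 against sh2 (edgeR adjusted p = 0.949).

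The ratio of both transcripts reuses the *Arg1* values and is given as a description. In TPM, there were 9.72, 13.4 and 11.9 *Arg1* transcripts for each *Nos2* transcript in the control tumors, 27.6, 141.0 and 44.9 in sh2, and 17.0, 42.3 and 5.49 in sh3. *Arg1* was thus the more abundant in each of the 9 tumors. *Nos3*, the endothelial synthase, was at 11.2 to 14.4 CPM in the control, 10.0 to 13.3 CPM in sh2 and 7.21 to 13.9 CPM in sh3. The 10 inflammatory activation markers summed to 432.9 to 646.6 CPM in the control, 186.4 to 522.8 CPM in sh2 and 384.3 to 1096.9 CPM in sh3. In sh2 against the control, 8 of these 10 markers had a log2 fold change below 0 and 2 above 0. Of the lower ones, 2 had an unadjusted p under 0.05 with edgeR, beside 3.52% of all genes in that comparison. These were *Ptgs2* and *Ifng* (edgeR adjusted p = 0.999 for both). In sh3 against the control, 6 of the 10 markers were above 0 and 4 below. The most abundant of the 10, the interferon-induced chemokine *Cxcl9*, differed between sh3 and sh2 by a log2 fold change of 1.90 ± 0.65 (edgeR adjusted p = 0.673).

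*Ass1* encodes the enzyme that joins citrulline to aspartate, the rate-limiting step by which cells rebuild arginine. It lies on chromosome 2 (GRCm38, 31470207 to 31520672, plus strand) and overlaps no other gene. *Odc1*, described further on, encodes the first enzyme of polyamine synthesis and lies on chromosome 12 (17544794 to 17551505, plus strand), where it holds a small nucleolar RNA gene. Of the 10 genes, where a test was made, only these 2 had an unadjusted p under 0.05 with edgeR. Both were called in sh3 against sh2, where 7.18% of all genes were. The promoter windows of *Ass1* and *Odc1* are shown for that reason. The sh2 tumors of that comparison also served in the choice of *Arg1*. The windows are RefSeq sequence of the reference strain on GRCm38.p6, from 250 bases before to 50 after the start annotated in RefSeq. For both genes that start differs from the gene start given above. The windows lie at chr2:31470020-31470319 for *Ass1* and chr12:17544623-17544922 for *Odc1*, both on the plus strand. Capitals mark the E-box CACGTG, the core bound by MYC and related factors, and the GC box GGGCGG, bound by SP1 family factors, each searched on both strands.
Ass1: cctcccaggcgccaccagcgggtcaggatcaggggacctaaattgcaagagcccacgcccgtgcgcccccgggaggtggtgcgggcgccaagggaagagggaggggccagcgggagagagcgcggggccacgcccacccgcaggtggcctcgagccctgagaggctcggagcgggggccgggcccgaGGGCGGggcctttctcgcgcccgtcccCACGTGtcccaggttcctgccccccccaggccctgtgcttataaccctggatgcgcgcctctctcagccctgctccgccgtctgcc
Odc1: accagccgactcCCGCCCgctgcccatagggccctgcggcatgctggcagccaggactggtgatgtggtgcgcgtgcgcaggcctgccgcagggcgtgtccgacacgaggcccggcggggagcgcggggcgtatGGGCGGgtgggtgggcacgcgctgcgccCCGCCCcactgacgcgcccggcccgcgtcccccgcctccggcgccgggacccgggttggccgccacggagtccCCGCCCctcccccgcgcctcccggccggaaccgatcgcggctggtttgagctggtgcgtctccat
The *Ass1* window held 1 E-box and 1 GC box, and the *Odc1* window held 4 GC boxes and no E-box. Over all 32851 promoter windows of this kind, 7.15% held an E-box and 35.7% a GC box, with no overlap between the motifs in these 2 windows. RefSeq windows were matched for 4 of the 10 genes, *Ass1*, *Slc7a1*, *Odc1* and *Sat1*, and no window was used for *Arg1*, *Arg2*, *Nos2*, *Asl*, *Slc7a2* and *Srm*. A match of letters is a description and not a bound site.

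The *Ass1* level was 17.0, 16.3 and 16.4 CPM in the control, 18.9, 8.60 and 12.7 CPM in sh2, and 20.2, 28.9 and 23.3 CPM in sh3. The sh3 tumors were the 3 highest of the 9 and overlapped neither other group, and the control tumors lay within 1 CPM of each other. In sh3 against sh2 the log2 fold change was 0.84 ± 0.27, a 1.80-fold higher level (edgeR adjusted p = 0.673 over all 14725 genes tested). In sh3 against the control it was 0.54 ± 0.27 (edgeR adjusted p = 0.76). An exact two-sided permutation test gave p = 0.1 in both, the smallest that 3 tumors against 3 allow (18 tests of this kind were made). Leaving out any tumor kept the direction, with values from 0.59 to 1.17 against sh2 and from 0.39 to 0.65 against the control. Neither difference passed the threshold over all genes. In sh2 against the control the value was -0.31 ± 0.27, with overlapping tumors.

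Among the sh3 tumors, *Ass1* was highest in replicates 2 and 3, whose inflammatory activation markers summed to 1096.9 and 1017.1 CPM, and lowest in replicate 1, where that sum was 384.3 CPM. Most of each of these sums was *Cxcl9*, at 823.9, 773.6 and 253.5 CPM. In sh2 the lowest *Ass1*, in replicate 2, came with the lowest inflammatory sum, 186.4 CPM. This did not hold throughout, since the *Ass1* level was flat over control tumors with sums of 432.9 to 646.6 CPM, and sh3 replicate 1, with a sum below each control tumor, had more *Ass1* than any of them. What part the cells that make these markers had in the *Ass1* level was not tested. *Asl* (chromosome 5, 130011258 to 130029247, minus strand) encodes the next enzyme, which releases arginine and fumarate. Its levels were 52.1, 51.7 and 43.9 CPM in the control, 45.2, 39.0 and 56.2 CPM in sh2, and 38.8, 57.7 and 41.4 CPM in sh3. The 3 groups overlapped, with a log2 fold change of -0.10 ± 0.19 in sh3 against the control (edgeR adjusted p = 0.938) and -0.03 ± 0.19 against sh2 (edgeR adjusted p = 0.979).

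The TPM ratio of *Ass1* to *Asl* was 0.306, 0.296 and 0.350 in the control, 0.392, 0.207 and 0.212 in sh2, and 0.487, 0.470 and 0.527 in sh3. The sh3 tumors had the 3 highest ratios, and *Asl* remained the more abundant transcript in all 9 tumors. *Otc* and *Cps1*, which close the urea cycle in liver, had at most 1 count in any tumor.

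*Slc7a1*, the main arginine importer by level, lies on chromosome 5 (GRCm38, 148327410 to 148399904, minus strand). It was at 145.8, 179.1 and 204.9 CPM in the control, 191.6, 145.2 and 138.5 CPM in sh2, and 312.6, 97.3 and 145.1 CPM in sh3. The highest and the lowest of the 9 tumors were thus both sh3 tumors, replicates 1 and 2. The log2 fold change of 0.07 ± 0.37 in sh3 against the control (edgeR adjusted p = 0.981) averaged over that spread, and it was -0.54 without sh3 replicate 1 and 0.37 without sh3 replicate 2. In sh2 it was -0.16 ± 0.37, with overlap.

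*Slc7a2* (chromosome 8, 40862396 to 40922308, plus strand), which an antisense non-coding gene overlaps, was much lower, at 4.90, 12.4 and 10.7 CPM in the control, 9.39, 14.8 and 9.72 CPM in sh2, and 17.0, 15.2 and 5.65 CPM in sh3. Its groups overlapped in each comparison, with log2 fold changes of 0.27 ± 0.46 in sh2 and 0.43 ± 0.46 in sh3 (edgeR adjusted p = 0.88). *Slc7a1* exceeded it by 7.01 to 32.6 times in TPM. *Slc3a2*, the heavy chain that pairs with several other amino acid transporters, was at 197.4 to 216.9 CPM in the control, 200.2 to 279.0 CPM in sh2 and 187.5 to 246.5 CPM in sh3.

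The level of *Odc1*, whose promoter window is given above, was 150.1, 184.3 and 170.3 CPM in the control group. The sh2 tumors lay close together at 141.0, 142.2 and 136.6 CPM, all below the lowest control tumor. The sh3 tumors had 295.5, 165.9 and 162.6 CPM, all above the highest sh2 tumor but spread around the control. The fitted log2 fold change was -0.27 ± 0.22 in sh2 against the control. It was 0.57 ± 0.22 in sh3 against sh2 (edgeR adjusted p = 0.673) and 0.31 ± 0.22 in sh3 against the control (edgeR adjusted p = 0.829). Leaving out sh3 replicate 1 brought the difference from sh2 to 0.23 and that from the control to -0.03, so the size of both rested on that tumor. The exact two-sided permutation test gave p = 0.1 against sh2, again the smallest possible, and p = 0.7 against the control.

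*Srm* (chromosome 4, 148591503 to 148594993, plus strand) makes spermidine from putrescine. It was at 65.0, 66.4 and 47.3 CPM in the control, 60.2, 57.2 and 54.6 CPM in sh2, and 78.3, 58.8 and 64.1 CPM in sh3. The groups overlapped, with a log2 fold change of 0.23 ± 0.17 in sh3 against sh2 (edgeR adjusted p = 0.736) and 0.17 ± 0.17 in sh3 against the control (edgeR adjusted p = 0.865). Its highest tumor was sh3 replicate 1, which also had the highest *Odc1* and *Slc7a1*.

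*Sat1* (chromosome X, 155213132 to 155216449, minus strand) was at 202.4, 222.4 and 191.5 CPM in the control, 199.3, 164.6 and 210.2 CPM in sh2, and 115.1, 345.5 and 231.7 CPM in sh3. The sh3 group held both extremes again, in the reverse order of *Slc7a1*: replicate 1 had the lowest *Sat1* of all tumors and replicate 2 the highest. The log2 fold change of 0.17 ± 0.32 in sh3 against the control (edgeR adjusted p = 0.939) was -0.24 without replicate 2 and 0.49 without replicate 1. Within sh3, *Sat1* and the macrophage sum had the same order, lowest in replicate 1 and highest in replicate 2. In the control the tumor with the lowest macrophage sum, replicate 2, had the highest *Sat1*. For each 1000 CPM of those markers there were 51.9 to 65.7 CPM of *Sat1* in the control, 58.1 to 70.7 in sh2 and 46.0 to 71.6 in sh3. Which cells the *Sat1* transcripts came from was not tested.

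The ratio of *Odc1* to *Sat1*, polyamine synthesis set against breakdown, was 0.372, 0.416 and 0.446 in TPM in the control and 0.355, 0.433 and 0.326 in sh2. It was 1.29, 0.241 and 0.352 in sh3. *Sat1* exceeded *Odc1* in 8 of the 9 tumors, the exception being sh3 replicate 1.

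**Figure D3:**
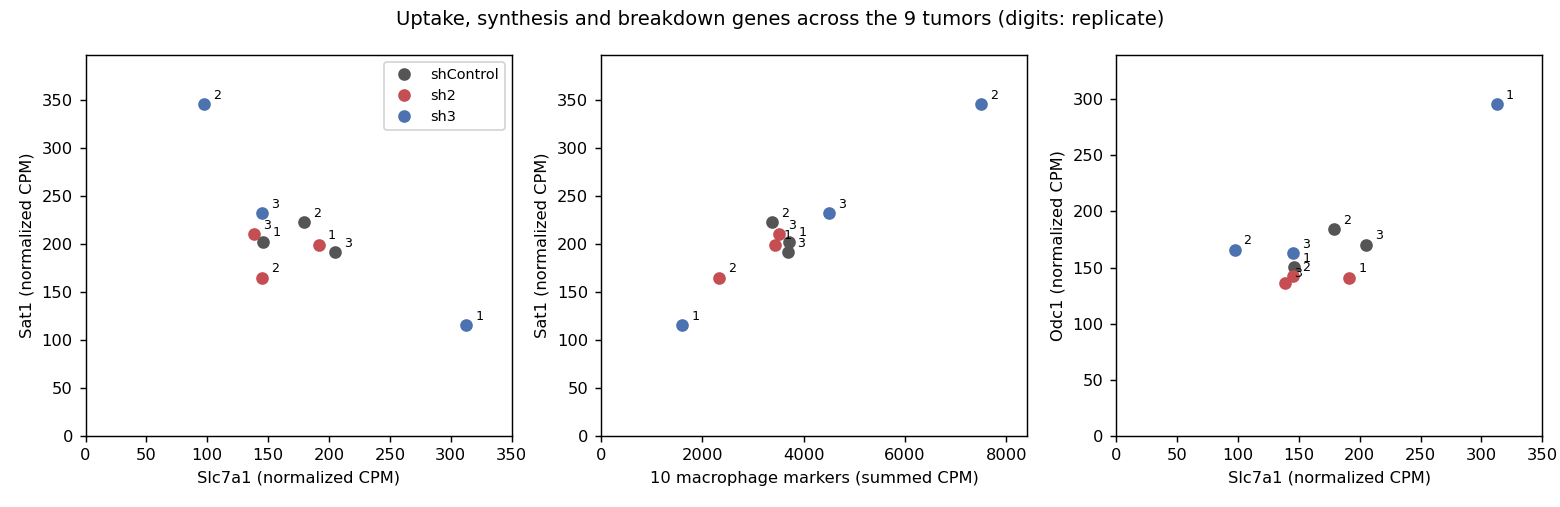
The 3 panels plot Sat1 against Slc7a1, Sat1 against the summed CPM of 10 macrophage markers, and Odc1 against Slc7a1, each in normalized CPM with 1 point a tumor, coloured by group and numbered by replicate. Replicates 1 and 2 of sh3 lie at the ends of the panels with Sat1, with sh3 replicate 1 at high Slc7a1, high Odc1 and low Sat1 and sh3 replicate 2 at low Slc7a1 and high Sat1, while control and sh2 tumors cluster between them.

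All 10 genes passed the filter on low counts, and no gene of the whole table passed an FDR of 0.05 with edgeR's quasi-likelihood test in any comparison (0% of 14725). At an unadjusted p under 0.05 that test called 518, 976 and 1057 genes in the 3 comparisons. At an FDR under 0.05 the DESeq2 Wald test called 2, 41 and 48 genes and the edgeR likelihood ratio test 0, 8 and 14. No gene called at that FDR was among the 9 genes other than *Arg1*. The lowest adjusted p over all genes was 0.999 in sh2 against the control, 0.753 in sh3 against the control and 0.673 in sh3 against sh2. In sh2 against the control, 1 of the 10 genes was higher without overlap (*Arg1*) and 1 lower (*Odc1*). Over all genes tested 5.56% were higher and 5.83% lower without overlap in that comparison, which chose *Arg1*. In sh3 against the control, 1 of 10 was higher without overlap (*Ass1*), beside 6.78% of all genes, and none was lower, beside 5.44%. In sh3 against sh2, 2 of 10 were higher without overlap (*Ass1* and *Odc1*), beside 5.51% of all genes, and none was lower, beside 4.62%.

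At an unadjusted p under 0.05, edgeR called 0 of the 9 genes other than *Arg1* in sh3 against the control, where 6.63% of all genes were called, and 2 of the 9 in sh3 against sh2, where 7.18% were. On the log2 scale, the median change of the 10 genes was -0.06, 0.17 and 0.19 in the 3 comparisons, beside 0.01, 0.03 and 0.03 for all genes. The differences not given above were small beside their errors. In sh2 against the control the log2 fold change was -0.07 ± 0.19 for *Asl*, -0.06 ± 0.17 for *Srm* and -0.10 ± 0.32 for *Sat1*. In sh3 against sh2 it was -0.12 ± 0.45 for *Arg2* (edgeR adjusted p = 0.96), 0.22 ± 0.37 for *Slc7a1* (0.906), 0.16 ± 0.46 for *Slc7a2* (0.947) and 0.27 ± 0.32 for *Sat1* (0.858). Both comparisons with the control used the same 3 control tumors, and both comparisons of sh3 the same 3 sh3 tumors.

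**Figure D4:**
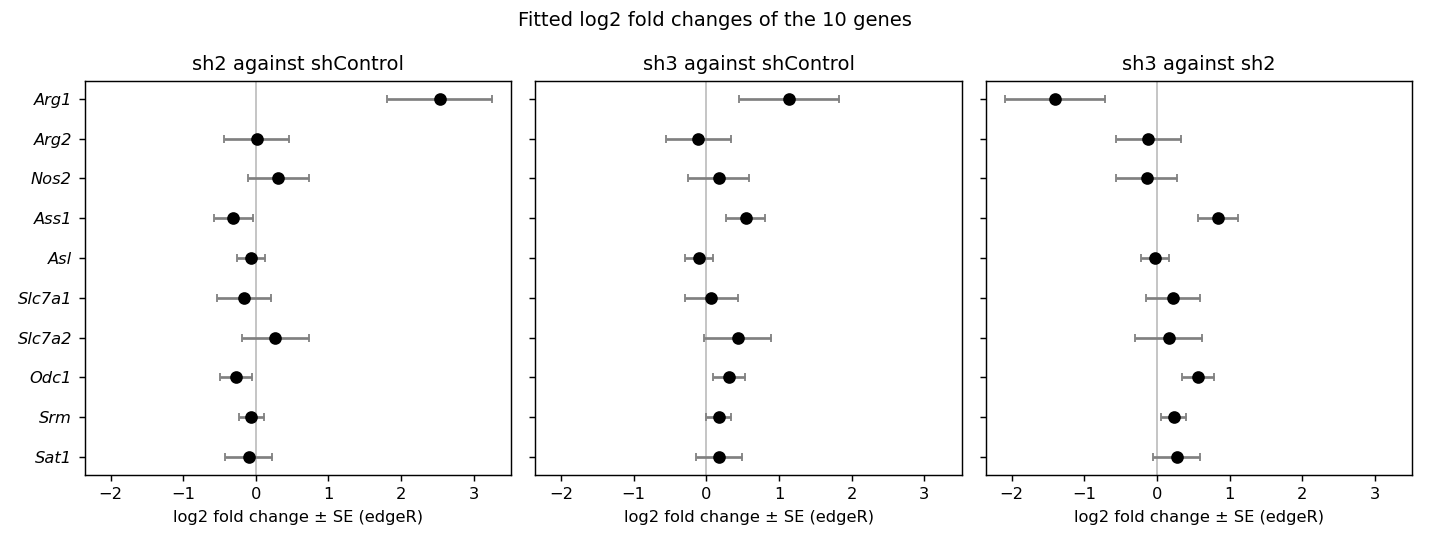
Points give the fitted log2 fold change of each of the 10 genes and bars its standard error, in sh2 against shControl, sh3 against shControl and sh3 against sh2. Arg1 is farthest from 0 in each panel (2.53, 1.14 and -1.40), Ass1 and Odc1 lie above 0 in the last panel, and most other genes are within about 1 standard error of 0.

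A list of 49 further genes of arginine and polyamine metabolism was counted in the same fit, and 43 of them passed the filter on low counts. None passed an FDR of 0.05 in any comparison. At an unadjusted p under 0.05, 1 of the 43 (2.33%) was called in each comparison, against 3.52%, 6.63% and 7.18% of all genes, and each was higher. The medians of the list were 0.04, 0.13 and 0.07 on the log2 scale.

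In sh2 against the control the called gene was *Smox*, spermine oxidase, which turns spermine back into spermidine. It was at 58.7, 50.5 and 47.7 CPM in the control and 56.5, 86.2 and 86.3 CPM in sh2, with sh2 replicate 1 inside the control range. Its log2 fold change was 0.55 ± 0.20 (edgeR adjusted p = 0.999). *Sms*, spermine synthase, was the gene called in sh3 against the control. It was at 9.46, 10.1 and 9.83 CPM in the control and 14.5, 11.8 and 13.7 CPM in sh3, without overlap, a log2 fold change of 0.44 ± 0.19 (edgeR adjusted p = 0.753). *Eif5a2*, an isoform of the translation factor that carries hypusine, an amino acid made from spermidine, was called in sh3 against sh2. Its levels were 7.25, 4.25 and 4.34 CPM in sh2 and 9.29, 8.99 and 7.49 CPM in sh3, a log2 fold change of 0.70 ± 0.26 (edgeR adjusted p = 0.673).

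By role, the 7 tested genes of polyamine synthesis and its regulators had a median log2 fold change of -0.03 in sh2 against the control, 0.17 in sh3 against the control and 0.17 in sh3 against sh2. In the last comparison all 7 values were above 0, from 0.03 to 0.33, as were 31 of the 43 tested genes of the whole list. None of the 7 had an unadjusted p under 0.05 with edgeR in that comparison. *Oaz1*, the antizyme that sends ornithine decarboxylase to the proteasome, was at 48.7 to 62.2 CPM in the control, 51.5 to 53.4 CPM in sh2 and 42.0 to 79.6 CPM in sh3. *Azin1*, which counters the antizymes, was at 147.9 to 210.1 CPM in the control, 148.6 to 201.0 CPM in sh2 and 163.9 to 197.3 CPM in sh3. Both overlapped in all comparisons.

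The 6 genes of polyamine breakdown and transport had medians of 0.14, 0.07 and 0.01, and the 4 hypusine genes 0.00, 0.26 and 0.26. Among the 7 genes leading from ornithine to proline, with medians of 0.04, 0.10 and 0.09, *Oat*, ornithine aminotransferase, was at 44.6 to 62.3 CPM in the control, 29.1 to 49.3 CPM in sh2 and 41.8 to 71.4 CPM in sh3. The 6 amino acid transporters tested had medians of 0.13, 0.06 and -0.03, and the 4 genes for tetrahydrobiopterin, the cofactor of nitric oxide synthases, 0.08, 0.25 and 0.21. For the 2 tested genes of the citrulline and urea cycle list, *Nos1* and *Nos3*, the medians were -0.12, 0.55 and 0.67. The 2 genes went opposite ways in both comparisons of sh3, so these medians describe neither. *Nos1*, with only 1 to 34 counts in a tumor, had 1.52 ± 0.81 against the control and 1.58 ± 0.82 against sh2. *Nos3* had -0.41 ± 0.27 and -0.24 ± 0.27. The 7 genes of arginine handling had medians of -0.10, -0.04 and 0.06. Of these *Gatm*, which starts creatine synthesis from arginine, was at 271.0 to 361.2 CPM in the control, 150.9 to 273.9 CPM in sh2, and 159.7, 494.9 and 498.4 CPM in sh3. The 2 lowest *Gatm* tumors, sh2 replicate 2 and sh3 replicate 1, were also those with the lowest macrophage sums, 2329.4 and 1608.2 CPM, and the 2 highest were those with the highest. This order did not hold in the control, where replicate 1 had the highest macrophage sum, 3718.6 CPM, and the lowest *Gatm*, 271.0 CPM. Which cells the *Gatm* transcripts came from was not tested.

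**Figure D5:**
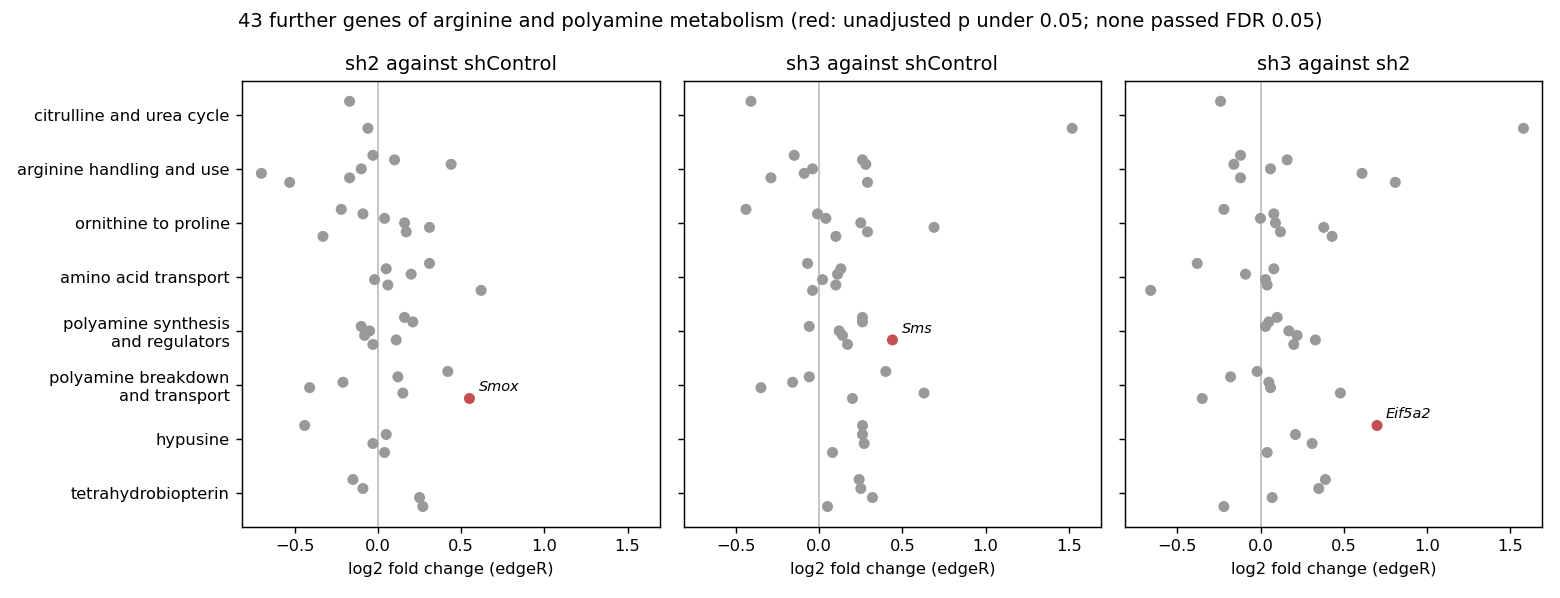
Each point is the fitted log2 fold change of 1 of 43 further genes of arginine and polyamine metabolism, in rows by role and in 3 panels by comparison, with red for an unadjusted p under 0.05. Smox, Sms and Eif5a2 are the only red points, 1 in each panel, and most points lie within 0.5 of 0.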

How the data were processed

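Polyadenylated RNA of 9 tumors was sequenced, with group and replicate number read from the sample titles. The authors checked reads with FastQC, aligned them to mm10 with STAR 2.5.3a, counted them with featureCounts and deposited raw counts per gene, as the submitters' processing notes and the study's methods give. The annotation and the strand setting are not given in the sources used here. The authors also deposited a normalized signal, CPM scaled by TMM, which was used only to check the counts, and TPM, used for levels between genes. A further 10 columns of the authors' edgeR comparisons (fold changes, p-values) were not used.

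Counts were fitted in R 4.3.3 with edgeR 4.0.16: all 9 tumors, filterByExpr by group, TMM, robust quasi-likelihood tests, and Benjamini-Hochberg adjustment over 14725 genes with a threshold of 0.05. Normalized CPM use the same TMM factors, and the SE is the fold change divided by the root of the F statistic. Single genes were also tested by exact two-sided permutation of log2(CPM + 0.5) with scipy 1.17.1. The labels call the tumors of a group biological replicates. No tumors of a group agreed within sampling noise. The floor of 3 counts covers counting error only.

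The 10 genes, the further pathway list and the marker lists were chosen with earlier results of these data known. Genes named beyond the 10 were those with an unadjusted p under 0.05 in the pathway list, 7 named for their role, the 5 most like *Arg1*, and the most abundant markers, while other names were chosen after their values were seen. *Amd1* and *Amd2* had identical counts and were counted once. *Tmprss11b* is listed as *Tmprss11bnl*. Gene positions are those of the GENCODE M21 annotation of GRCm38, and promoters are from RefSeq. The alternatives changed the size factors (DESeq2 1.42.0), the test (DESeq2 Wald, edgeR likelihood ratio), the low-count filter (none, or 10 counts or more in each tumor) or the samples fitted (the compared groups alone, or 1 tumor omitted), or added the replicate number as a block.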

Additional observations from a re-analysis of the deposited data

How the results depend on the processing

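The number of genes at an FDR under 0.05 was 0 in each comparison with edgeR's quasi-likelihood test, and it stayed at 0 to 0 with any tumor left out, with other size factors or filters, with only the compared groups, and with the replicate block. The DESeq2 Wald test gave 2, 41 and 48 genes in sh2 against the control, sh3 against the control and sh3 against sh2, and the edgeR likelihood ratio test 0, 8 and 14. None of the 9 tested genes other than *Arg1* and none of the 43 further pathway genes was among them. At an unadjusted p under 0.05, the counts fell from 518, 976 and 1057 to 319, 670 and 741 with the replicate block. The replicate numbers did not pair the tumors: same-numbered tumors of different groups had a mean correlation of -0.099 (lowest -0.235, highest 0.086), and 0 of 9 tumors correlated best with their own number.

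Of 480 fold changes of the 10 genes under the alternatives, 451 kept their direction and 29 turned it, and none with a test crossed the threshold. With the replicate block, *Slc7a1* in sh3 against the control became -0.09 (adjusted p = 0.996). The others turned only when 1 tumor was left out. In sh2 against the control, which has no test for these genes, the ranges were -0.24 to 0.33 for *Arg2*, -0.14 to 0.65 for *Nos2*, -0.22 to 0.05 for *Asl*, -0.03 to 0.54 for *Slc7a2*, -0.20 to 0.04 for *Srm* and -0.17 to 0.00 for *Sat1*. In sh3 against the control the ranges were -0.58 to 0.19 for *Arg2*, -0.07 to 0.29 for *Nos2*, -0.30 to 0.01 for *Asl*, -0.54 to 0.37 for *Slc7a1*, -0.03 to 0.44 for *Odc1* and -0.24 to 0.49 for *Sat1*. In sh3 against sh2 they were -0.59 to 0.10 for *Arg2*, -0.49 to 0.30 for *Nos2*, -0.22 to 0.10 for *Asl*, -0.39 to 0.53 for *Slc7a1*, -0.12 to 0.48 for *Slc7a2* and -0.14 to 0.59 for *Sat1*. The adjusted p of *Ass1* in sh3 against sh2 lay between 0.172 and 0.97 over the alternatives. All 90 normalized values moved by less than the replicate spread with DESeq2 size factors. Depth limits the results little, since each of the 10 genes had at least 41 counts in each tumor.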
